A study of Homo sapiens with 24 samples.

Results

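The miR-424, miR-503, miR-542 and miR-450 cluster is a run of 6 microRNA (miRNA) hairpins on the minus strand of human chromosome X, described here by its mature products in small RNA libraries of the lung cancer cell line SBC-3, of the small cell type. Members were the mature miRNAs of these hairpins that lie on that strand within the stretch the hairpins span (hg38), chosen by position and name, which gave 10 of the 2652 mature miRNAs in the count tables. They occupy 11 of the 2883 loci, because miR-450a-5p is encoded by 2 hairpins. All cells were wild type (WT) and were collected 72 h after reverse transfection with 10 nM of an oligonucleotide. There were 8 groups of 3 libraries. SFPQ was targeted by the small interfering RNAs (siRNAs) siSFPQ-2 or siSFPQ-3 and NONO by siNONO-3 or siNONO-4, each set against the control siRNA siCtrl. NEAT1 was targeted by an antisense oligonucleotide (ASO), either ASO-NEAT1-1047 or ASO-NEAT1-1473, set against ASO-Ctrl. SFPQ and NONO are RNA-binding proteins of nuclear paraspeckles, which assemble on the long noncoding RNA NEAT1. The design thus asked how the cluster's miRNAs stood after loss of each protein and of the RNA. All groups are transfections of 1 cell line, nothing in the labels says that replicates came from separate cultures, and messenger RNA of the targets was not measured, so their knockdown was not checked here.

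A miRNA cluster is transcribed as a long primary RNA, from which Drosha cuts hairpins and Dicer then releases a duplex. One strand, usually the more abundant one, is kept by Argonaute and pairs with messenger RNAs mainly through its seed, bases 2 to 8, while the other is mostly lost. miR-424 (miR-322 in rodents) and miR-503 are known to restrain the cell cycle by repressing cyclins and CDC25A, and the cluster is induced when muscle cells differentiate and by hypoxia in endothelial cells.

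The mature sequences follow, from RefSeq (GRCh38.p14), for the 9 members with an entry, with the seed in capitals, because shared seeds decide which members could act on the same messages.
miR-424-5p: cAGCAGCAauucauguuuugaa
miR-424-3p: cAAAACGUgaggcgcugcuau
miR-503-5p: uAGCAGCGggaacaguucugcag
miR-503-3p: gGGGUAUUguuuccgcugccagg
miR-542-5p: uCGGGGAUcaucaugucacgaga
miR-450a-5p: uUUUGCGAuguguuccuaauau
miR-450a-2-3p: aUUGGGGAcauuuugcauucau
miR-450a-1-3p: aUUGGGAAcauuuugcauguau
miR-450b-5p: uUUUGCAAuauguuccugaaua

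miR-424-5p (MIMAT0001341) and miR-503-5p (MIMAT0002874) differed at 1 seed base, and miR-424-5p had the seed of the miR-15/16 family, shown here by its most abundant member for comparison.
miR-16-5p: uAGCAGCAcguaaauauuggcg
The seeds of miR-450a-5p (MIMAT0001545) and miR-450b-5p (MIMAT0004909) also differed at 1 base, and the whole sequences at 6. miR-450a-1-3p and miR-450a-2-3p, which come from 2 nearly identical hairpins, differed at 3 bases, 1 of them in the seed. The remaining seeds, those of miR-424-3p, miR-503-3p and miR-542-5p, were each carried by a single member.

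In the direction of transcription the hairpins were MIR424 (chrX:134546614-134546711), MIR503 (chrX:134546328-134546398), MIR542 (chrX:134541341-134541437), MIR450A2 (chrX:134540508-134540607), MIR450A1 (chrX:134540341-134540431) and MIR450B (chrX:134540185-134540262). They spanned 6527 bases. MIR503 followed MIR424 after 215 bases, and MIR542 came 4890 bases further on. The 3 miR-450 hairpins began 733 bases after MIR542 and lay 76 and 78 bases apart. Both miR-503 arms lie in an intron of the noncoding host gene MIR503HG (chrX:134543337-134546632, GENCODE v29). The miR-424 arms lie just upstream of the RefSeq start of MIR503HG, with their 3′ ends 50 and 14 bases before it. MIR542 and the miR-450 hairpins lie downstream of MIR503HG, in no annotated gene on their strand other than the hairpins. The 300 bases around the MIR503HG start (chrX:134546581-134546880, minus strand, RefSeq GRCh38.p14) are shown because the 2 mature miR-424 arms, in capitals, sit inside that promoter window.
MIR503HG promoter window: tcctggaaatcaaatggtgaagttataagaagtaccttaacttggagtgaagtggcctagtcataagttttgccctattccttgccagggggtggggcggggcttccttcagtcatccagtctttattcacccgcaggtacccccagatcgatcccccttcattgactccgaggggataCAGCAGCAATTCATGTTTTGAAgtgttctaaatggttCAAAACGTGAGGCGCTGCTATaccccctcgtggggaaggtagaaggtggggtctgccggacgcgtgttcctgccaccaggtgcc

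The libraries held 2038382 to 4279644 mature miRNA counts, of which the 10 members took 1052 to 8435. Levels are CPM, counts scaled to a common depth, on library sizes adjusted by TMM, whose factors ran from 0.846 to 1.36. These factors were 1.09 to 1.36 in the siSFPQ libraries and 0.846 to 1.03 in all others, so the scaling itself differed with SFPQ knockdown. All 10 members passed the filter on low counts, as did 626 miRNAs in all. 2 libraries, siCtrl replicate 1 and ASO-NEAT1-1047 replicate 3, stood apart from their groups over all tested miRNAs, at 11.7 and 10.2 on the second principal component of log2 CPM (9.94% of the variance), where the other libraries lay between -8.18 and 6.86. Several results for the members are therefore also given without 1 or both of them. Their miR-424-5p, 88.8 and 85.4 CPM, and miR-450a-5p, 5.25 and 9.07 CPM, were the lowest of their groups, but siNONO-4 replicate 3, which stayed in, was lower in both, at 83.7 and 3.71 CPM. Of 2 miRNAs known from neuroendocrine cells, the kind of cell that small cell lung cancer often resembles, miR-7-5p had 6850 to 19900 CPM and miR-375-3p 0.257 to 8.55 CPM, a pair chosen after values had been seen. miR-450b-3p, the other arm of MIR450B, is not a listed member and had 0 to 6 counts per library. The counts of the 2 miR-450a-5p loci were equal in 23 of 24 libraries and differed by 1 in the other. Its 2 hairpins therefore cannot be told apart by that arm, whereas their 3p arms can.

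The cluster was expressed at a moderate level, and 4 products made up nearly all of it. miR-542-3p (MIMAT0003389), miR-450b-5p, miR-424-5p and miR-503-5p together held 89.1% to 95.9% of the members' counts in the 24 libraries. miR-542-3p was the most abundant, with 48.2 ± 4.5% of the cluster's counts in siCtrl (SD, n = 3). miR-424-5p held 19.7 ± 8.8% there and miR-450b-5p 19.1 ± 4.2%. The opposite arms were minor: in siCtrl miR-424-3p held 0.604 ± 0.239%, miR-542-5p 0.829 ± 0.268% and miR-503-3p 0.334 ± 0.281%. The dominant arm was thus the 5p arm of miR-424 and miR-503 and the 3p arm of miR-542.

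Summed over the 10 members, the level averaged 1137 ± 440 CPM with siSFPQ-2 and 1655 ± 355 CPM with siSFPQ-3, against 890.0 ± 114 CPM with siCtrl (SD, n = 3 each). It averaged 577 ± 177 CPM with siNONO-3 and 633 ± 221 CPM with siNONO-4. In the ASO groups it averaged 1052 ± 245 CPM with ASO-NEAT1-1047 and 1139 ± 250 CPM with ASO-NEAT1-1473, against 934 ± 233 CPM with ASO-Ctrl. For all 10 members siSFPQ-3 had the highest group mean of the 8 groups. miR-503-3p had more than 10 counts only in the siSFPQ-3 libraries (14, 13 and 16) and siCtrl replicate 1 (16). It thus passed the low-count filter largely through the group with its highest mean, so its rank adds no support. A siNONO group had the lowest mean for 9 members, and ASO-NEAT1-1047 for miR-424-3p. Most neighbours in these orders had overlapping libraries. Both siSFPQ groups lay clear of all others for miR-424-3p. For miR-503-5p and miR-450b-5p the siSFPQ-3 libraries, at 94.1 and 276 CPM or more, lay clear of the group next by mean. They overlapped siSFPQ-2, which reached 105.0 and 315 CPM, and for miR-503-5p also ASO-NEAT1-1047, which reached 99.4 CPM.

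**Figure D1:**
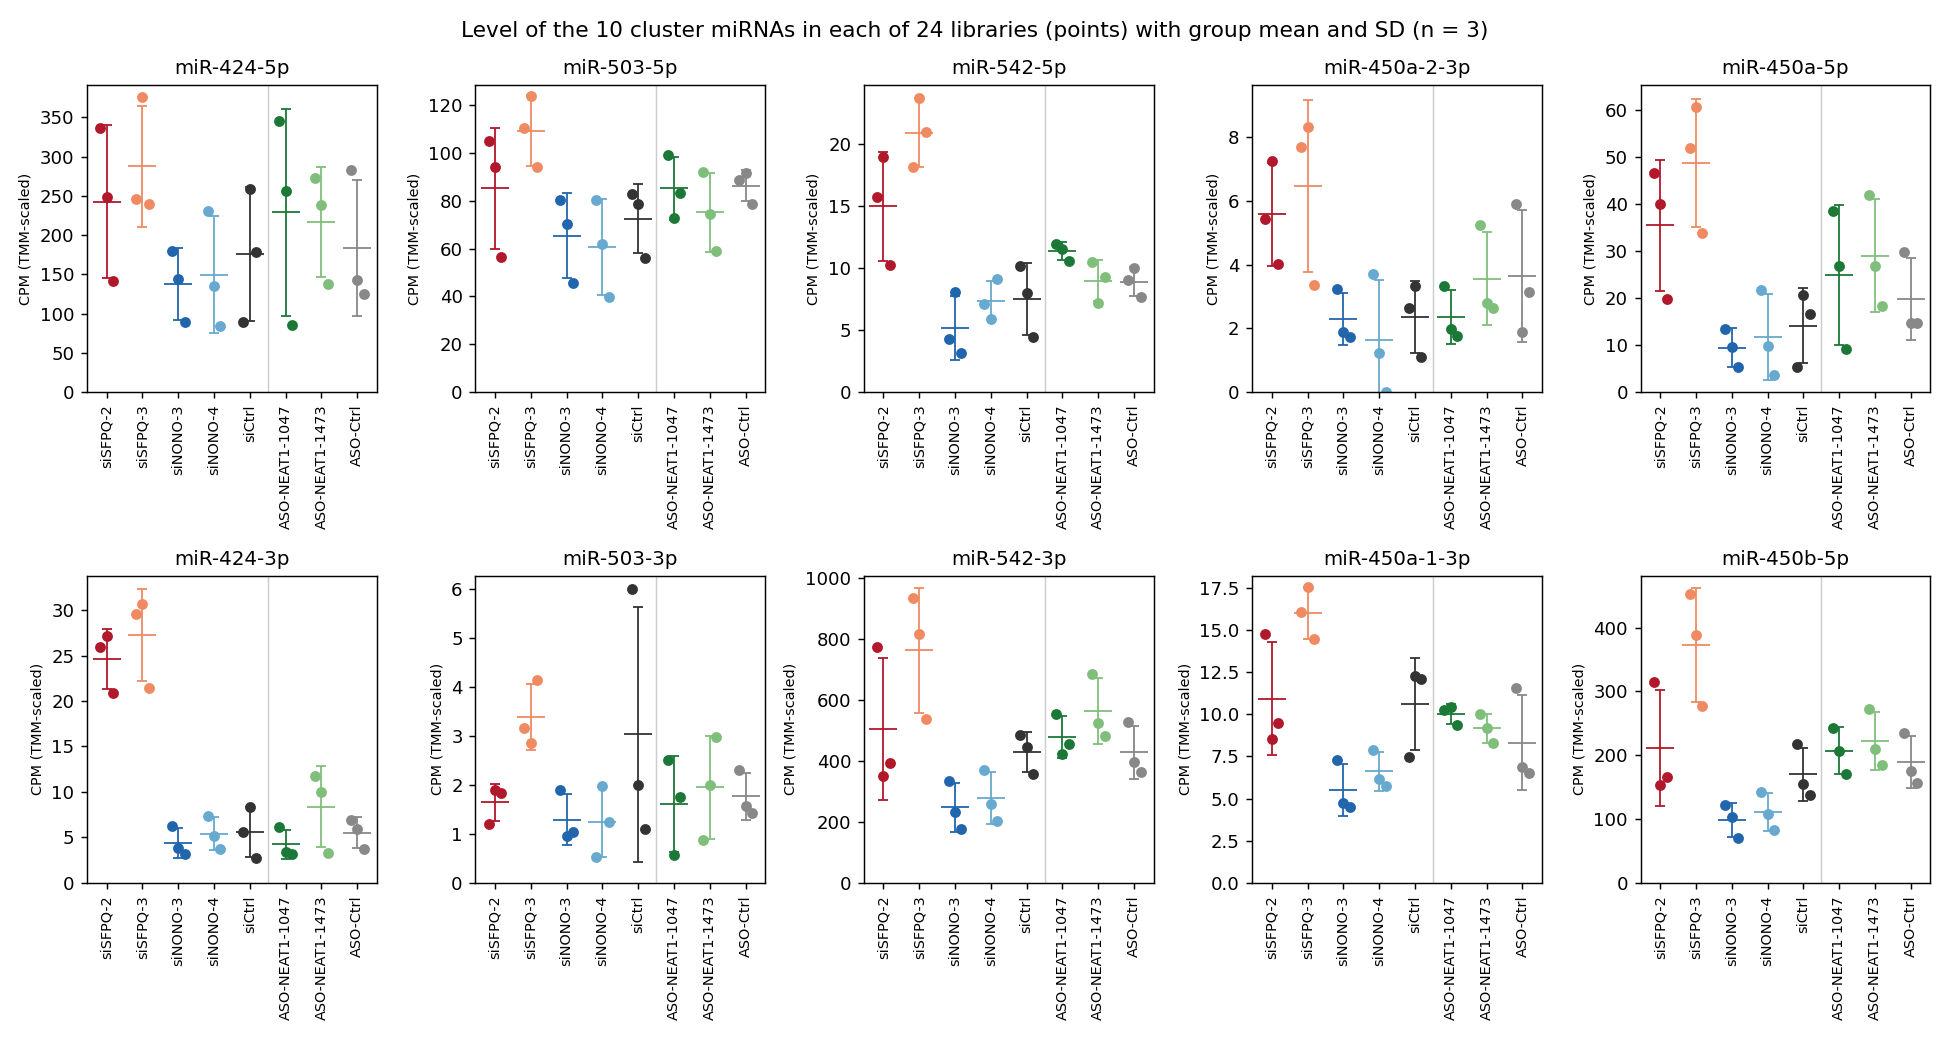
Level of each cluster miRNA (y axis, CPM on TMM-scaled library sizes) in the 24 libraries, by group (x axis); points are libraries, and horizontal lines with bars are the group mean and SD (n = 3). The 6 siSFPQ libraries of miR-424-3p sit at 20.9 to 30.7 CPM, above all others, while miR-503-3p stays at or under 5.996 CPM in every library.

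After SFPQ knockdown, 5 of the 10 members were higher than in siCtrl and none was lower: miR-424-3p, miR-542-5p, miR-450a-5p, miR-450a-2-3p and miR-450b-5p. A member was called at an adjusted p under 0.05 in the quasi-likelihood test of edgeR (Benjamini-Hochberg, 626 tested miRNAs), and 25.6% of all tested miRNAs were higher by that rule. The median log2 fold change was 0.65 over the members and 0.02 over all tested miRNAs, and 9 of 10 members had a positive value. All 6 siSFPQ libraries lay above all 3 siCtrl libraries for 3 members, miR-424-3p, miR-542-5p and miR-450a-2-3p, against 19.8% of tested miRNAs.

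Taken along the transcript, miR-424-3p (MIMAT0004749), the minor arm of the first hairpin, had the largest change among the members. It had 26.0, 27.1 and 20.9 CPM in siSFPQ-2 libraries and 29.6, 30.7 and 21.5 CPM in siSFPQ-3 libraries, against 5.62, 8.30 and 2.75 CPM in siCtrl libraries. No siSFPQ library overlapped the siCtrl range. The log2 fold change was 2.16 ± 0.37 (SE), or 4.46-fold, with an adjusted p of 5.13e-05 by edgeR. It was called in each of the 9 fits that left out 1 siSFPQ or siCtrl library, with values of 1.86 to 2.57.

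Its partner miR-424-5p, the arm with the miR-15/16 seed, was not called. It had 336.5, 249 and 142 CPM in siSFPQ-2 libraries and 246, 376 and 239.9 CPM in siSFPQ-3 libraries, against 88.8, 259 and 179 CPM in siCtrl libraries. Only 2 of 6 siSFPQ libraries exceeded the highest siCtrl library, and siCtrl replicate 1 was the lowest of the 9. The log2 fold change was 0.59 ± 0.42 (95% interval -0.28 to 1.45, edgeR adjusted p = 0.264). Without siCtrl replicate 1 it was 0.23 (edgeR adjusted p = 0.702), so its size rested in part on that library.

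miR-503 sits beside miR-424, and neither of its arms was called. miR-503-5p, whose seed differs from that of miR-424-5p at 1 base, had a lowest, median and highest level of 56.7, 99.7 and 124 CPM in the 6 siSFPQ libraries. In the same order, siCtrl libraries had 56.2, 78.7 and 82.8 CPM of it. 5 of 6 siSFPQ libraries lay above all siCtrl libraries, and the log2 fold change was 0.41 ± 0.24 (edgeR adjusted p = 0.166). miR-503-3p, its rare arm, summed to 15 counts in siSFPQ-2 and 43 in siSFPQ-3, against 24 in siCtrl, and had a log2 fold change of -0.42 ± 0.47 (edgeR adjusted p = 0.488). At this depth its value rests on few counts, and without siCtrl replicate 1 it was 0.48.

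Further along, miR-542-5p (MIMAT0003340), the minor arm of the third hairpin, was higher. It had 15.7, 18.9 and 10.3 CPM in siSFPQ-2 libraries and 18.1, 23.7 and 20.9 CPM in siSFPQ-3 libraries, against 10.1, 7.97 and 4.40 CPM in siCtrl libraries. The ranges did not overlap, but the lowest siSFPQ library was close to the highest siCtrl library. The log2 fold change was 1.20 ± 0.28, with an edgeR adjusted p of 0.00134, and it was called in all 9 fits that left out 1 library. The abundant arm miR-542-3p had 773, 349 and 392 CPM in siSFPQ-2 libraries and 935, 817 and 537 CPM in siSFPQ-3 libraries, against 486, 444 and 356 CPM in siCtrl libraries. Here 4 siSFPQ libraries lay above the siCtrl range and 1 below it, and the log2 fold change of 0.53 ± 0.26 was not called (edgeR adjusted p = 0.101).

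Products of the miR-450 hairpins, the last in the transcript, accounted for the other 3 calls. miR-450a-5p had 46.5, 40.1 and 19.8 CPM in siSFPQ-2 libraries and 51.8, 60.5 and 33.9 CPM in siSFPQ-3 libraries, against 5.25, 20.6 and 16.5 CPM in siCtrl libraries. 5 of 6 siSFPQ libraries exceeded every siCtrl library. Its log2 fold change was 1.56 ± 0.51 (edgeR adjusted p = 0.0147), and without siCtrl replicate 1, the lowest library, it was 1.11 and not called (adjusted p = 0.111).
miR-450b-5p, the second most abundant product in siSFPQ-3 libraries, had 315, 152 and 165 CPM in siSFPQ-2 libraries and 452, 389 and 276 CPM in siSFPQ-3 libraries, against 217, 155 and 138 CPM in siCtrl libraries. The siSFPQ-2 libraries overlapped the siCtrl range, and the siSFPQ-3 libraries did not. Its log2 fold change was 0.72 ± 0.26 (edgeR adjusted p = 0.0264), with 0.51 to 0.90 in the 9 fits that left out 1 library, of which 4 kept the call. The call ended without siCtrl replicate 2 or 3, siSFPQ-2 replicate 1, or siSFPQ-3 replicate 1 or 2, and the highest adjusted p was 0.166.

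The 3p arms of the 2 miR-450a hairpins are the products that separate these hairpins. miR-450a-2-3p (MIMAT0031074) had 5.43, 7.26 and 4.03 CPM in siSFPQ-2 libraries and 7.69, 8.33 and 3.36 CPM in siSFPQ-3 libraries, against 2.62, 3.32 and 1.101 CPM in siCtrl libraries. These groups did not overlap, by a narrow margin, at 19 counts summed over siCtrl. The log2 fold change was 1.27 ± 0.53 with an edgeR adjusted p of 0.0498. That call held in 2 of the 9 fits without 1 library, those without siSFPQ-2 replicate 3 or siSFPQ-3 replicate 3, and the adjusted p reached 0.187 without siCtrl replicate 3. miR-450a-1-3p (MIMAT0022700) ranged over 8.52, 14.6 and 17.5 CPM (lowest, median and highest) in the 6 siSFPQ libraries, against 7.50, 12.1 and 12.3 CPM in siCtrl libraries. Its log2 fold change was 0.32 ± 0.25 (95% interval -0.19 to 0.84; edgeR adjusted p = 0.304). The difference between these 2 arms was not tested.

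Calls thus came from both ends of the cluster and not in the order of the hairpins. Among the more abundant arms the log2 fold changes in SFPQ knockdown were 0.59 for miR-424-5p, 0.41 for miR-503-5p, 0.53 for miR-542-3p and 0.72 for miR-450b-5p, and the 95% interval of each contains the other 3 values. The value of miR-424-5p was 0.23 without siCtrl replicate 1. The scaling of the libraries moved the number of calls. With library totals in place of TMM, 8 members were higher, but the median of all tested miRNAs was then 0.47 and the split of all calls was 252 higher and 67 lower, against 160 higher and 142 lower with TMM. With spike-in totals 6 members were higher and the median of all was 0.21. With the replicate number as a term in the model 7 were higher, miR-503-5p (edgeR adjusted p = 0.045) and miR-542-3p (adjusted p = 0.0144) among them. Of all tested miRNAs 168 were higher in that fit. With RLE size factors 4 were higher, without miR-450a-2-3p (edgeR adjusted p = 0.0565), and a fit of the compared groups alone also gave 4, without miR-450b-5p (adjusted p = 0.0855). Without siCtrl replicate 1 and ASO-NEAT1-1047 replicate 3, 3 members were higher: miR-424-3p, miR-542-5p and miR-450b-5p.

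**Figure D2:**
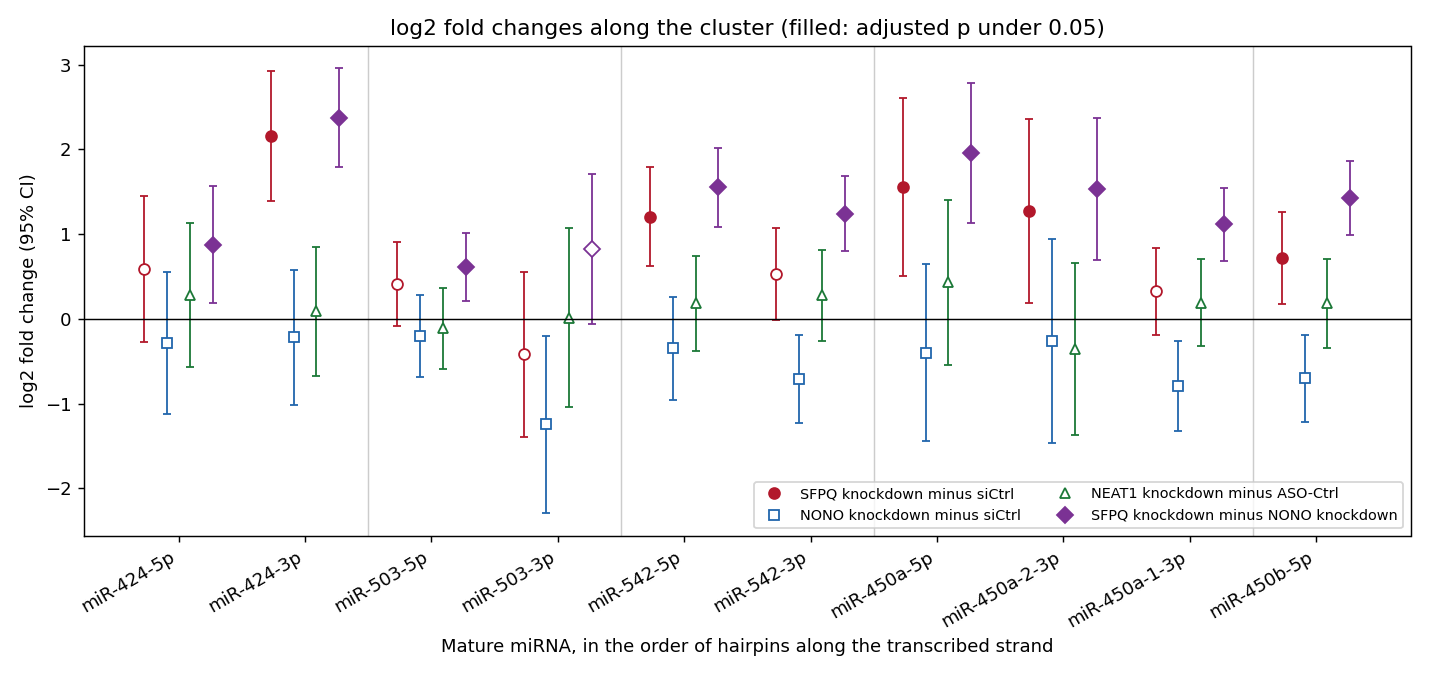
log2 fold change (y axis) of each member in the order of its hairpin along the transcribed strand (x axis), for 3 knockdowns against their controls and for SFPQ knockdown against NONO knockdown; symbols are edgeR estimates, bars their 95% intervals, and filled symbols have an adjusted p under 0.05. Red symbols are filled for 5 members, purple for 9, and blue and green for none; the value of miR-503-3p for SFPQ knockdown, -0.42 here, was 0.04 with library totals.

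The 2 siRNAs against SFPQ gave values of like sign for 9 members. siSFPQ-2 had 2 members higher than siCtrl, miR-424-3p (2.09 ± 0.40, edgeR adjusted p = 0.000273) and miR-542-5p (0.97 ± 0.32, edgeR adjusted p = 0.021), where 23.2% of tested miRNAs were higher. siSFPQ-3 had 5 higher, where 22.7% of tested miRNAs were higher: the same 2, at 2.23 ± 0.40 and 1.44 ± 0.31, with miR-542-3p (0.83 ± 0.30), miR-450a-5p (1.79 ± 0.56) and miR-450b-5p (1.13 ± 0.30). With library totals these counts were 4 for siSFPQ-2 and 8 for siSFPQ-3, where 220 and 234 of 626 tested miRNAs were higher. With spike-in totals they were 2 and 8, where 107 and 205 tested miRNAs were higher. Without siSFPQ-3 replicate 2 the count for siSFPQ-3 was 3. The count for siSFPQ-2 was 1 without siCtrl replicate 2 or 3, without siSFPQ-2 replicate 1 or 2, and in a fit of the compared groups alone. miR-503-3p, uncalled with either, had -0.93 ± 0.58 for siSFPQ-2 and 0.10 ± 0.51 for siSFPQ-3. Set directly against siSFPQ-2, siSFPQ-3 gave a positive value for all 10 members, but none was called by edgeR, or by DESeq2 at an adjusted p under 0.05. By edgeR 0.639% of tested miRNAs were called, and 1 member had an unadjusted p under 0.05. That member was miR-450b-5p, with 0.82 ± 0.29 and an edgeR adjusted p of 0.398.

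The arms of a hairpin can be compared within a library, where scaling cancels. miR-424-3p made up 9.93 ± 2.82% of the 2 miR-424 arms with siSFPQ-2 and 8.82 ± 1.67% with siSFPQ-3, against 3.53 ± 2.24% with siCtrl (SD, n = 3 each). It made up 3.09 ± 0.46% with siNONO-3 and 3.68 ± 0.57% with siNONO-4. The 6 siSFPQ libraries, at 7.16% to 12.8%, lay above the 6 siNONO libraries, at 2.56% to 4.25%, and above the siCtrl libraries, at 1.52% to 5.95%.
On the log2 scale of 3p over 5p counts, with 0.5 counts added to each, the mean was -3.30 ± 0.36 in 6 siSFPQ libraries and -4.92 ± 0.98 in 3 siCtrl libraries. The difference of 1.63 had a p of 0.0238 in a two-sided exact permutation test, the smallest p that 6 against 3 libraries allow, with all 6 libraries above the controls. After Benjamini-Hochberg adjustment over the 9 arm comparisons the exact p became 0.214, so the difference did not pass.

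The arms of miR-542 and miR-503 differed less. For miR-542 the log2 ratio of 3p over 5p was 5.08 ± 0.57 in siSFPQ libraries and 5.86 ± 0.35 in siCtrl libraries, a difference of -0.78 with 4 of 6 libraries below the controls (exact permutation p = 0.0714, adjusted p = 0.321). For miR-503 the same ratio was -5.26 ± 0.63 in siSFPQ libraries and -4.77 ± 0.89 in siCtrl libraries, a difference of -0.49 (exact permutation p = 0.357, adjusted p = 0.643). The 6 arm comparisons for NONO and NEAT1 had exact permutation p-values of 0.286 to 1.0, with differences of -0.75 to 0.12.

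**Figure D3:**
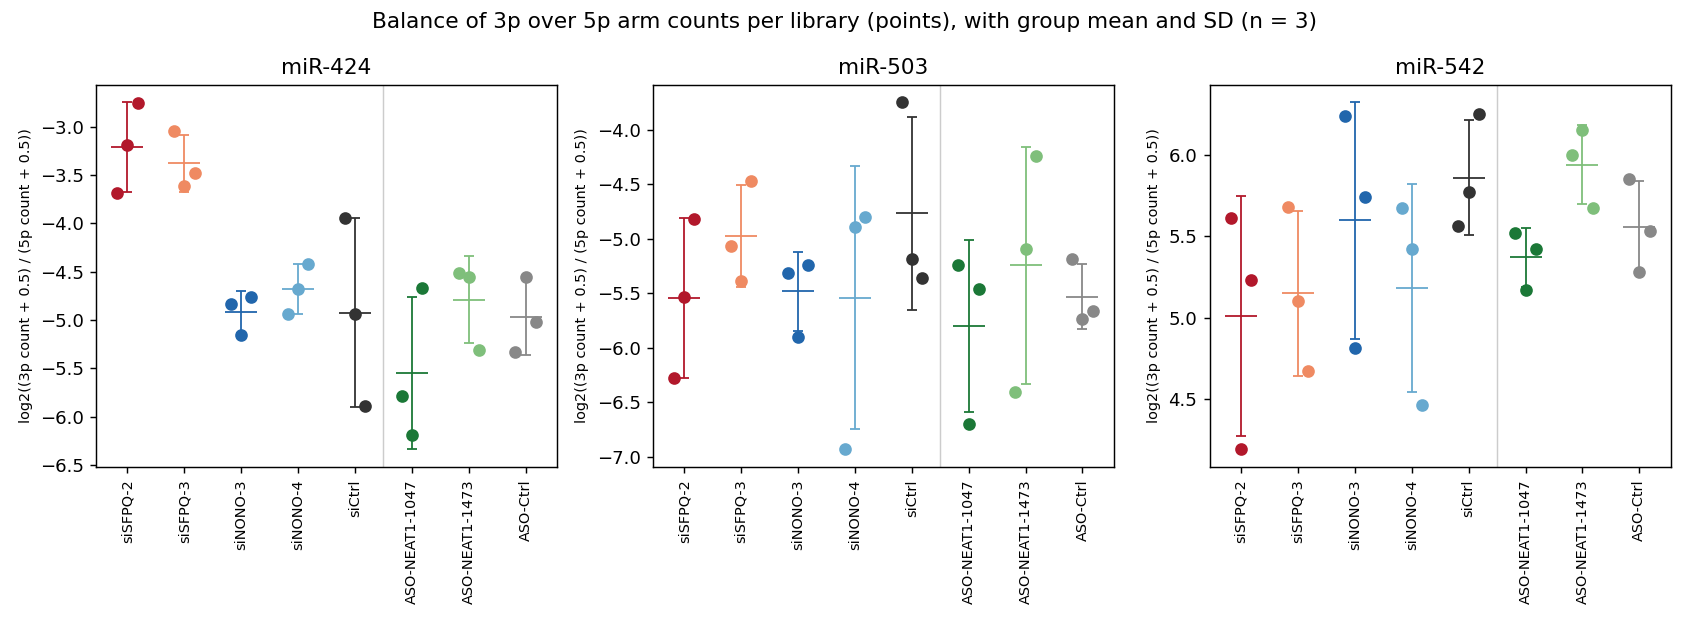
log2 of the 3p over the 5p count of miR-424, miR-503 and miR-542 (y axis, 0.5 counts added to each) in every library, by group (x axis); points are libraries, lines and bars the group mean and SD (n = 3). For miR-424 the siSFPQ libraries lie above all siCtrl and siNONO libraries, and for miR-503 and miR-542 the groups overlap.

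After NONO knockdown none of the 10 members was called against siCtrl, where 1.6% of tested miRNAs were called in either direction. By edgeR 4 members had an unadjusted p under 0.05, all lower. DESeq2 called 0 at an adjusted p under 0.05. The share of all tested miRNAs at that unadjusted threshold is not given here, so the 4 cannot be set against the 1.6%. All 10 log2 fold changes were negative, with a median of -0.37 against 0.01 over all tested miRNAs. The 4 were miR-450a-1-3p (-0.79 ± 0.26, edgeR adjusted p = 0.123), miR-542-3p (-0.71 ± 0.25, adjusted p = 0.179), miR-450b-5p (-0.70 ± 0.25, adjusted p = 0.179) and the rare miR-503-3p (-1.25 ± 0.51, adjusted p = 0.299). miR-542-3p had 335, 233 and 176 CPM in siNONO-3 libraries and 369.8, 258 and 204 CPM in siNONO-4 libraries, against 486, 444 and 356 CPM in siCtrl libraries. 5 of 6 siNONO libraries lay below every siCtrl library, as they did for miR-450b-5p and miR-450a-1-3p. Without siCtrl replicate 1 and ASO-NEAT1-1047 replicate 3, miR-450a-1-3p was called lower (-1.05, edgeR adjusted p = 0.0327). With the replicate number as a term in the model, miR-542-3p (-0.75, edgeR adjusted p = 0.00509) and miR-450b-5p (-0.71, adjusted p = 0.00492) were called lower. The share of all tested miRNAs called in that fit is not given here. The absence of calls thus depended on the model. Each NONO siRNA alone gave 0 called members, where 2.56% of tested miRNAs were called with siNONO-3 and 0.958% with siNONO-4. DESeq2 called 0 with either at an adjusted p under 0.05. At an unadjusted edgeR p under 0.05 there were 3 members with siNONO-3 and 4 with siNONO-4. For these counts too, no share of all tested miRNAs at the same threshold is given.

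NEAT1 knockdown gave no called member against ASO-Ctrl, and 0% of all tested miRNAs were called. In edgeR 0 members had an unadjusted p under 0.05, and DESeq2 called 0 at an adjusted p under 0.05. The members' log2 fold changes ran from -0.36 to 0.43, with a median of 0.18. miR-424-3p had 6.11, 3.38 and 3.22 CPM in ASO-NEAT1-1047 libraries and 11.8, 9.96 and 3.31 CPM in ASO-NEAT1-1473 libraries, against 6.93, 5.94 and 3.69 CPM in ASO-Ctrl libraries. Libraries of both NEAT1 groups overlapped the controls. Its log2 fold change was 0.09 ± 0.37 (95% interval -0.67 to 0.85), an interval that does not reach the value of 2.16 seen for SFPQ knockdown. With each ASO alone, 0 members and 0% of tested miRNAs were called. ASO-NEAT1-1473 against ASO-NEAT1-1047, siNONO-4 against siNONO-3 and ASO-Ctrl against siCtrl each gave 0 called members, with 0%, 0% and 0.479% of tested miRNAs called. At an unadjusted edgeR p under 0.05 there was 1 member over all 5, miR-424-3p between the 2 NEAT1 ASOs (0.94 ± 0.43, edgeR adjusted p = 0.954). DESeq2 called 0 in each at an adjusted p under 0.05.

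SFPQ and NONO knockdown were also set against each other, to ask whether loss of the 2 partner proteins left the cluster at different levels. Directly against NONO knockdown, SFPQ knockdown had 9 of 10 members higher, all but miR-503-3p, and 29.7% of tested miRNAs were higher by the same rule. The members' median log2 fold change was 1.33, against -0.0050 for all tested miRNAs. All 6 siSFPQ libraries lay above all 6 siNONO libraries for 4 members, miR-424-3p, miR-542-5p, miR-450a-1-3p and miR-450b-5p, against 19.5% of tested miRNAs. Both knockdowns share the siCtrl libraries, but these do not enter the direct contrast.

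In that contrast the first hairpin again gave the largest and one of the smaller values. miR-424-3p had a lowest, median and highest level of 20.9, 26.6 and 30.7 CPM in siSFPQ libraries, against 3.13, 4.48 and 7.38 CPM in siNONO libraries, with a log2 fold change of 2.37 ± 0.28 (edgeR adjusted p = 2.01e-07). miR-424-5p had 142, 248 and 376 CPM in siSFPQ libraries, against 83.7, 139.5 and 230.0 CPM in siNONO libraries, with a log2 fold change of 0.88 ± 0.33 (edgeR adjusted p = 0.0286). Its call held in 6 of the 12 fits without 1 library. It ended without siSFPQ-2 replicate 1, siSFPQ-3 replicate 2, siNONO-3 replicate 2 or 3, or siNONO-4 replicate 2 or 3, with a highest adjusted p of 0.0947. miR-503-5p had 0.61 ± 0.19 (edgeR adjusted p = 0.00881), and miR-503-3p had 0.83 ± 0.43 (adjusted p = 0.104).
Products of the distal hairpins followed. miR-450b-5p had 152, 296 and 452 CPM in siSFPQ libraries, against 69.5, 105.6 and 142.5 CPM in siNONO libraries, with a log2 fold change of 1.42 ± 0.21 (edgeR adjusted p = 4.98e-06). miR-542-3p had 349, 655 and 935 CPM in siSFPQ libraries, against 176, 246 and 369.8 CPM in siNONO libraries, with 1.24 ± 0.21 (edgeR adjusted p = 3.02e-05). miR-450a-5p differed by 1.96 ± 0.40, miR-542-5p by 1.55 ± 0.22, miR-450a-2-3p by 1.54 ± 0.41 and miR-450a-1-3p by 1.11 ± 0.21, and the call of each held in all 12 fits without 1 library.

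The effect of SFPQ knockdown on its control was also set against the effect of NEAT1 knockdown on its own control, a contrast added after the values had been seen. 1 member differed, miR-424-3p, whose difference of log2 fold changes was 2.07 ± 0.52 (edgeR adjusted p = 0.00453), where 12.1% of tested miRNAs differed in that direction. miR-542-5p had a difference of 1.02 ± 0.39 and an adjusted p of 0.0584. The count was 5 with library totals and 2 with spike-in totals. In these, 174 and 87 of 626 tested miRNAs were higher, and the median of all was 0.49 and 0.23. Without siCtrl replicate 1 or without siSFPQ-2 replicate 3 the count was also 2.

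Libraries of a group differed most in miR-450a-5p. The pooled SD of log2 CPM within groups was 0.80 for miR-450a-5p, 0.70 for the rare miR-450a-2-3p and 0.68 for miR-424-5p, against 0.29 for miR-450a-1-3p, 0.34 for miR-503-5p and 0.39 for miR-542-3p. The highest library of a group exceeded the lowest by up to 5.82-fold in miR-450a-5p, 5.45-fold in the rare miR-503-3p and 4.04-fold in miR-424-5p. The lowest library of a group in miR-424-5p was also the lowest in miR-450a-5p in 7 of 8 groups. That library was replicate 3 in 7 of 8 groups for miR-424-5p, miR-503-5p and miR-450b-5p, and in 8 of 8 for miR-424-3p. Replicate 1 was the highest in 8 of 8 groups for miR-542-3p and miR-450b-5p. The lowest library of miR-424-5p was the lowest in 5 of 8 groups for miR-542-3p and in 1 of 8 for miR-503-3p. miR-15a-5p, encoded on another chromosome, was also lowest in that library in all groups but siSFPQ-3. In siCtrl miR-15a-5p had 518 CPM in replicate 1, against 1148 and 1067 CPM in replicates 2 and 3. A shared lowest library was thus not particular to the cluster. Whether the replicate number marks a shared day or batch is not given in the labels.

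miR-424-5p shares its seed with miR-15a-5p, miR-15b-5p, miR-16-5p, miR-195-5p and miR-497-5p, which are encoded on other chromosomes. With TMM scaling 4 of these 5 fell after SFPQ knockdown, where 22.7% of all tested miRNAs were lower, whereas miR-424-5p and miR-503-5p had the positive, uncalled values given above. The log2 fold change was -1.33 ± 0.18 for miR-497-5p (edgeR adjusted p = 2.66e-06) and -0.54 to -0.52 for miR-15b-5p, miR-16-5p and miR-195-5p. Of these 5, only miR-497-5p was called lower with library totals (-0.90) or spike-in totals (-1.19), and the uncalled miR-15a-5p was -0.28 with TMM and 0.14 with library totals. miR-424-5p and miR-503-5p together had 328 ± 122 CPM with siSFPQ-2 and 397 ± 90.1 CPM with siSFPQ-3, against 248 ± 83.8 CPM with siCtrl. The 5 others together had 27610 ± 4374 CPM with siSFPQ-2 and 27470 ± 2682 CPM with siSFPQ-3, against 40080 ± 10290 CPM with siCtrl. miR-424-5p and miR-503-5p were therefore 1.17%, 1.42% and 0.615% of the summed level of all 7 in these 3 groups. The siCtrl sum rests in part on replicate 1, which had 44230 CPM of miR-16-5p, against 26430 and 26820 CPM in replicates 2 and 3. The siSFPQ libraries had 18100 to 25210 CPM of it. In miR-497-5p siCtrl replicate 1 was instead the lowest, at 803 CPM against 1573 and 1591 CPM. These sums, shares and tests are not given without that library.

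**Figure D4:**
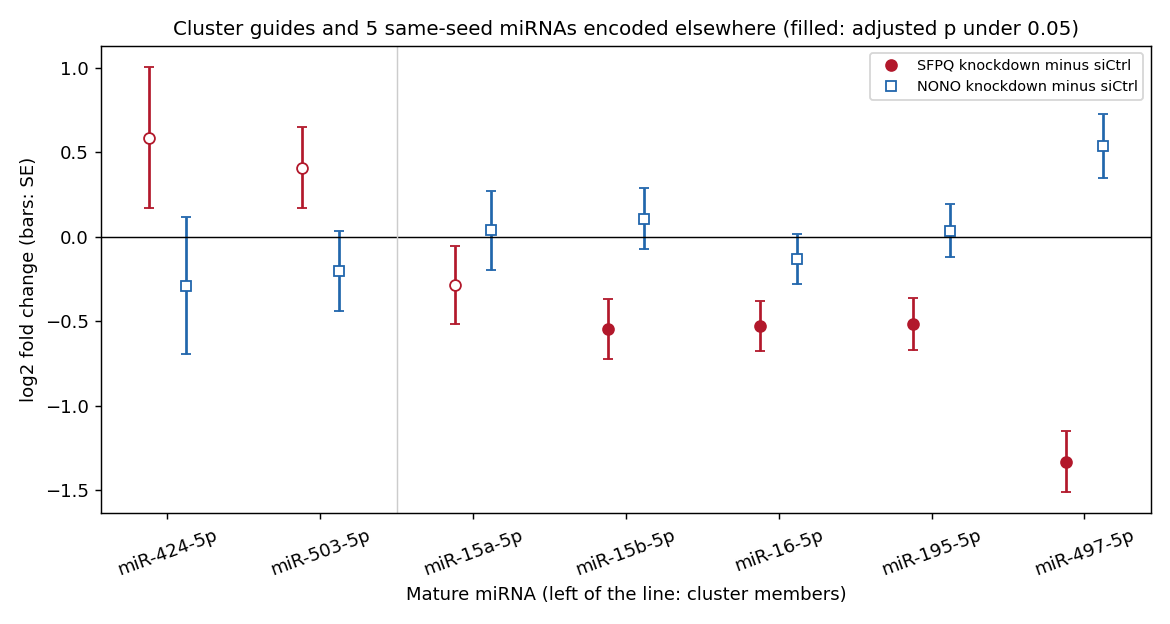
log2 fold change (y axis) of miR-424-5p and miR-503-5p and of 5 miRNAs with the miR-424-5p seed encoded elsewhere (x axis), for SFPQ and NONO knockdown against siCtrl; bars are the SE of the edgeR estimate and filled symbols have an adjusted p under 0.05. Of the red symbols, 4 of the 5 miRNAs encoded elsewhere are filled and below 0 with TMM scaling, of which miR-497-5p alone stays called with library totals, where miR-15a-5p is at 0.14.

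Another cluster on that strand, led by miR-106a, lies 369906 bases away in the direction of transcription. Of its 12 mature products 7 were tested, and 0 were higher and 4 lower after SFPQ knockdown, against 25.6% and 22.7% of all tested miRNAs, with a median log2 fold change of -0.67. With library totals 1 was higher and 1 lower, with a median of -0.24, and with spike-in totals 1 was higher and 2 lower. Several of these have near-identical copies on other chromosomes, and whether they share reads with them was not checked. Among 388 tested miRNAs outside the cluster with a mean of at least 10 CPM, those whose log2 CPM over the 24 libraries was most like the mean standardised profile of the 10 members were miR-21-5p (Pearson r = 0.909), miR-135a-5p and miR-135b-5p (r = 0.863 for both), miR-181a-2-3p (r = 0.831) and miR-30d-3p (r = 0.830). miR-135a-5p and miR-135b-5p never differed by more than 0.234% in count and thus stand for 1 profile. For comparison, a member's r with the mean of the other 9 ran from 0.325 for miR-503-3p to 0.922 for miR-450b-5p. These likenesses describe 24 libraries that share scaling and group structure, and no test was made of them.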

How the data were processed

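The authors deposited a table per library with integer counts for each mature miRNA locus and spike-in, made with featureCounts of Subread 2.0.3 per the file headers. Trimmomatic 0.39, Bowtie 1.3.0, UMI-tools 1.1.1, DESeq2 1.38.1 and hg38 are named in the submitters' processing notes, without order or parameters. No source used here says whether identifiers were collapsed, so counts may not be numbers of separate molecules. The SDs given are among libraries, and the edgeR errors include the spread among libraries.

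For each mature miRNA the locus with the largest total was kept. Counts were tested in R 4.3.3 with edgeR 4.0.16. The filter filterByExpr (minimum count 10) left 626 miRNAs holding 99.97% of the counts, library sizes were scaled by TMM, and a quasi-likelihood model with 8 group terms took in all 24 libraries (16 residual degrees of freedom). A knockdown is the mean of its 2 reagents minus its control. Adjusted p-values are Benjamini-Hochberg over the 626, at 0.05, and a standard error (SE) is the log2 fold change over the square root of the F statistic. Simulated counts with known changes served to test the script. Arm ratios were compared by two-sided exact permutation in Python 3.11.15. Alternatives were RLE, library or spike-in totals, no filter or a stricter one (mean of 10 CPM), a replicate block, compared groups only, DESeq2 1.42.0, summed loci and leaving out libraries. Named were all 10 members, 5 same-seed miRNAs, the neighbouring cluster as counts, and the 5 miRNAs most alike in profile. The members and lists were chosen with earlier results of these data known.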

Additional observations from a re-analysis of the deposited data

Results flagged for a closer look

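The effects of 2 knockdowns differed by a test of the difference itself for 9 members between SFPQ and NONO knockdown, with 29.7% of all tested miRNAs higher in that contrast. The log2 differences, SFPQ minus NONO knockdown, were 0.88 for miR-424-5p, 2.37 for miR-424-3p, 0.61 for miR-503-5p, 1.55 for miR-542-5p, 1.24 for miR-542-3p, 1.96 for miR-450a-5p, 1.54 for miR-450a-2-3p, 1.11 for miR-450a-1-3p and 1.42 for miR-450b-5p. Between the SFPQ and NEAT1 effects, a contrast added after the values had been seen, 1 member differed, miR-424-3p, by 2.07. In that direction 12.1% of all tested miRNAs differed.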

How the results depend on the processing

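After SFPQ knockdown 5 members were higher with TMM and 4 to 8 under the other settings that kept all libraries. There were 8 with library totals, where the median of all miRNAs moved with them, 3 without siCtrl replicate 1 and ASO-NEAT1-1047 replicate 3 (chosen after seeing the data), and 3 to 5 when 1 library was left out. The count fell to 3 without any 1 of the siCtrl libraries, siSFPQ-2 replicate 1, or siSFPQ-3 replicate 1 or 2. After NONO knockdown the count was 0, except 1 lower without those 2 libraries and 2 lower with the block. NEAT1 knockdown gave 0 under every setting, and SFPQ against NONO knockdown gave 8 to 10. The cause of these changes was not tested.

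Replicate numbers are shared by the groups, and libraries were not treated as pairs, because the labels give no meaning to the number and not every same-numbered pair deviated together from the group means. The correlation was above 0.1 in 16 of 30 same-numbered pairs of siRNA libraries (median 0.105) and 14 of 60 pairs with different numbers (median -0.0719), and in 7 of 9 (median 0.414) and 3 of 18 (median -0.19) pairs of ASO libraries. Same-numbered libraries thus deviated together more often than others did. Among the members, replicate 1 was the highest library in 8 of 8 groups for miR-542-3p and miR-450b-5p. The fit without a block leaves any such shared variation in its error. With the replicate number as a block, 7 members were higher after SFPQ knockdown, and 168 of all tested miRNAs, against 160 without the block. Members added were miR-503-5p (edgeR adjusted p = 0.045) and miR-542-3p (adjusted p = 0.0144). After NONO knockdown 2 members were lower, miR-542-3p (-0.75, edgeR adjusted p = 0.00509) and miR-450b-5p (-0.71, adjusted p = 0.00492). The block also gave 4 members higher for siSFPQ-2, 7 for siSFPQ-3, 1 between these siRNAs, 2 lower for siNONO-3, and 3 for the SFPQ effect minus the NEAT1 effect, which was 2 with summed loci. For these counts and those of NONO knockdown, no share of all tested miRNAs in the same fit is given. They thus cannot be read as particular to the cluster. Permuting labels within replicate numbers left the miR-424 arm difference at 1.63 with an exact p of 0.0741, the smallest that design allows.

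The miR-424 arm difference was 1.71 with siSFPQ-2 alone and 1.54 with siSFPQ-3 alone (exact permutation p = 0.1 for both, the smallest for 3 against 3), and 1.14 to 2.12 when 1 library was left out. The remaining sign changes concern values that were not called. miR-503-3p after SFPQ knockdown was 0.043 with library totals, 0.48 without the 2 libraries above, and -0.77 to 0.48 when 1 was left out. After NONO knockdown, leaving out 1 library gave -0.66 to 0.069 for miR-424-5p, -0.54 to 0.16 for miR-424-3p and -0.91 to 0.027 for miR-450a-2-3p. After NEAT1 knockdown it gave -0.15 to 0.37 for miR-424-3p, -0.26 to 0.32 for miR-503-3p and -0.69 to 0.26 for miR-450a-2-3p, and miR-503-3p was -0.015 with no filter and -0.0050 with summed loci. Arm differences with 1 library left out ran from -0.36 to 0.61 for miR-424 and NONO, -0.38 to 0.0047 for miR-424 and NEAT1, -0.79 to 0.016 for miR-503 and SFPQ, -0.25 to 0.24 for miR-503 and NEAT1, and -0.038 to 0.25 for miR-542 and NEAT1. With 1 ASO alone the arm difference was 0.175 for miR-424 (ASO-NEAT1-1473), -0.268 for miR-503 and -0.186 for miR-542 (ASO-NEAT1-1047). Counts of the minor arms, 2 to 140 per library except 1 count of 0, limit their precision.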
